A study of Homo sapiens with 17 samples.

Results

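Broad H2A.Z intervals are the stretches of 3000 bp or more that a single entry of a deposited peak list spans. They were taken from the 8 whole lists of Flag ChIP-seq peaks on chromosomes 1 to 22, X and Y, and overlapping ones were merged over the lists. This gave 383 broad regions, out of 114535 regions in the merged union of all intervals. The regions were chosen by interval width, so their widths, and the number of lists in which each was broad, are given as a description and without a test.

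The cells were Caco-2/15, a human colon cancer line that acquires features of small-intestinal enterocytes after it reaches confluence. A Flag tag had been inserted by genome editing at 1 allele of H2AFZ, which encodes H2A.Z.1, or of H2AFV, which encodes H2A.Z.2. Subconfluent cells of either genotype were compared with cells of the same genotype kept for 7 days past confluence, and each of the 4 groups had 2 experiments, Exp1 and Exp2. All 8 precipitations used 4 µg of the same Flag antibody and carried 10 ng of spike-in chromatin. Every group therefore kept an untagged allele, and the lists show the tagged protein only. The sources used here do not say whether a tagged line was 1 clone. The labels call the experiments duplicates but not whether they were separate cultures, so p-values below measure the spread between these lists, which may be technical.

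H2A.Z is a variant of histone H2A that is placed into nucleosomes by dedicated remodelling complexes rather than only at replication. It is best known at the nucleosomes that flank the starts of active or poised genes and at enhancers, usually as short stretches on either side of a nucleosome-depleted start. The proteins H2A.Z.1 and H2A.Z.2 are products of separate genes and are nearly identical in sequence.

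The lists differ in size and in how they were sequenced. They held 30603 to 79425 intervals, and read depth cannot be read from a peak list. Median widths were 487 to 545 bp in the Exp1 lists and 364 to 474 bp in the Exp2 lists, so the experiments did not overlap in width. The names of the peaks give 1 sequencing run for the Exp1 lists of H2A.Z.1, another for the Exp1 lists of H2A.Z.2 and 1 shared run for all Exp2 lists. Isoform and run cannot be told apart within Exp1. The list of H2A.Z.2 in subconfluent cells from Exp2 stood apart as the shortest, with 30603 intervals and 9 broad ones, and the differences between groups in share and in fold percentile are given below also without it. The counts of regions by list and the H2A.Z.2 pair of Exp2 include it.

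The promoters of 6 genes inside broad regions show the range of sequence that such a region can span. They were chosen as a gene broad in all 8 lists (CCNO), genes broad in postconfluent lists only (CDK6, FAT1, C11orf21 and TGIF1) and a gene broad in subconfluent lists only (PRR15). Each runs from 250 bases before the start of transcription to 50 bases after it, 5′ to 3′ on the gene's strand, from RefSeq (GRCh38.p14). The regions of CCNO and CDK6 held 2 listed starts each and that of TGIF1 held 6, of which 1 is shown. CG dinucleotides, the sites of DNA methylation, are in capitals. The positions are CCNO chr5:55232942-55233241, minus strand; CDK6 chr7:92833910-92834209, minus strand; FAT1 chr4:186726647-186726946, minus strand; C11orf21 chr11:2303091-2303390, minus strand; TGIF1 chr18:3449922-3450221, plus strand; PRR15 chr7:29563585-29563884, plus strand.
CCNO: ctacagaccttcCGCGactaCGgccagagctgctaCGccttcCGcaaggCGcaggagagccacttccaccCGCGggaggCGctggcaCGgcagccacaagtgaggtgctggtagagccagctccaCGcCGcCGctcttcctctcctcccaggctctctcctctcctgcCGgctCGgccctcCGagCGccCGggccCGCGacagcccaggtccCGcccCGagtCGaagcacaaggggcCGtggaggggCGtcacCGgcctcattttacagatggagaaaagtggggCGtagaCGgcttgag
CDK6: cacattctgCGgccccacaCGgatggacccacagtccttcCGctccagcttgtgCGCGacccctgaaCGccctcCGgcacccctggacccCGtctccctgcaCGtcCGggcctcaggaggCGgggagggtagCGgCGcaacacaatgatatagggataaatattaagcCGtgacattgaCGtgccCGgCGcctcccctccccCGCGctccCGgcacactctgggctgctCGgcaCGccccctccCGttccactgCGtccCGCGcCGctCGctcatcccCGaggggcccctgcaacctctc
FAT1: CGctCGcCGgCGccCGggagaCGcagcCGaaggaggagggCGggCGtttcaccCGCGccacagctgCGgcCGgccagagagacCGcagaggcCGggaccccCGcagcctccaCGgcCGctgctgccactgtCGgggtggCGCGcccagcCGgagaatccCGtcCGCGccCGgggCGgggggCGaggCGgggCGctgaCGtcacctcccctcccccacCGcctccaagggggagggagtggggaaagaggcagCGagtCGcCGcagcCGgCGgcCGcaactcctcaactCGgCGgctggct
C11orf21: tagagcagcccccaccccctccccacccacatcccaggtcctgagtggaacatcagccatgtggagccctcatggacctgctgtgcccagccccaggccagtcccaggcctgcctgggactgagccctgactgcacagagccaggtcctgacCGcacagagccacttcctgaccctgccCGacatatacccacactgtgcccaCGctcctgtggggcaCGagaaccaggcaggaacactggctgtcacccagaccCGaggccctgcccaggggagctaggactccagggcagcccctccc
TGIF1: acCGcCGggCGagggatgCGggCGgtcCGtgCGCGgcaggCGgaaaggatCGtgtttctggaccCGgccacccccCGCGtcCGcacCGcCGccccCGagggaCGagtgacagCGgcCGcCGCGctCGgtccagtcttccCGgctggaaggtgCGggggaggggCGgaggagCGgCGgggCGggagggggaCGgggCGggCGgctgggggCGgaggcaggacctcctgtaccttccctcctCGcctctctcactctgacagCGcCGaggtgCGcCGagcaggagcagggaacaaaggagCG
PRR15: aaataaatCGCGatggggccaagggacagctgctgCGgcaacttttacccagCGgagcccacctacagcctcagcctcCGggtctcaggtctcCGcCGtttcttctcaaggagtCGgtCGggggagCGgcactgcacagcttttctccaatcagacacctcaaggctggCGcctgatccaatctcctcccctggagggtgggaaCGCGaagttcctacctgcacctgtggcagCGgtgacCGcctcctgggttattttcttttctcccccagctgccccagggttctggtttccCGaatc
CG dinucleotides numbered 28 in the CCNO promoter, 29 in CDK6, 40 in FAT1, 39 in TGIF1 and 16 in PRR15. The C11orf21 promoter held 5, so a broad interval can span a start that is poor in CG as well as one that is rich in it. The hexamer GGGCGG, the core of the GC box bound by SP-family factors, was found on either strand 1 time in CCNO, 2 times in FAT1 and 6 times in TGIF1, and not in the other 3 sequences.

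Broad intervals were rare in every list. They made up 0.251% and 0.0842% of the H2A.Z.1 intervals in subconfluent cells (117 of 46636 in Exp1 and 56 of 66522 in Exp2), and 0.269% and 0.271% in postconfluent cells (152 of 56427 and 215 of 79425). For H2A.Z.2 they made up 0.170% and 0.0294% in subconfluent cells (95 of 55788 and 9 of 30603), and 0.156% and 0.216% in postconfluent cells (61 of 39086 and 111 of 51348). As group means the shares were 0.168% ± 0.118 for H2A.Z.1 in subconfluent and 0.270% ± 0.000919 in postconfluent cells, and 0.0999% ± 0.0996 and 0.186% ± 0.0425 for H2A.Z.2 (SD, n = 2 each). The experiments of the subconfluent groups lay far apart. Without the list of 9 broad intervals the difference between states fell from 0.0944 to 0.0596 percentage points, and that between isoforms from -0.0758 to -0.0379. In Exp1 the 2 states were alike, with 213 broad intervals in the postconfluent lists and 212 in the subconfluent lists. In Exp2 there were 326 and 65. Within H2A.Z.2 of Exp1 the order was the reverse, with fewer broad intervals in postconfluent cells. H2A.Z.1 lists held more than H2A.Z.2 lists in both experiments, 269 against 156 in Exp1 and 271 against 120 in Exp2.

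**Figure D1:**
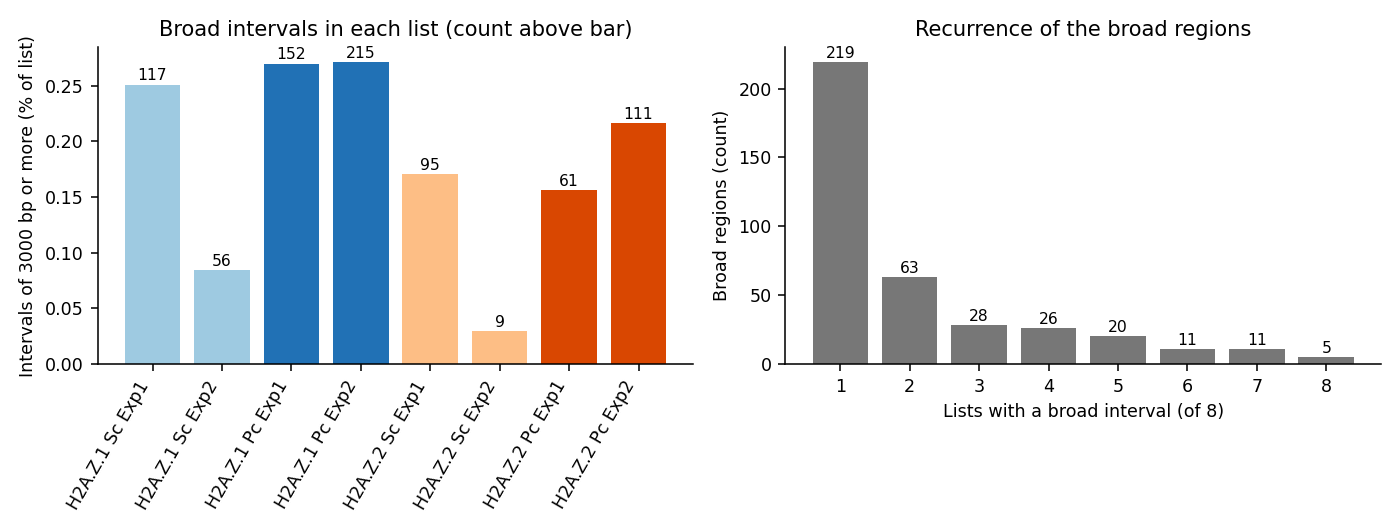
Left, the share of each list's intervals that measured 3000 bp or more (percent), with their number above the bar; Sc is subconfluent, Pc postconfluent. Right, the number of broad regions by how many of the 8 lists held a broad interval there: 219 regions were broad in 1 list and 5 in all 8.

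The merged regions measured 3000 to 6234 bp, with a median of 3374 bp, and covered 1363 kb in all. Just inside the minimum lay regions of 3000 bp near C11orf24 and at ST6GAL1, and one of 3002 bp near DDX11. Just outside it lay intervals of 2998 bp at SLC6A9, 2997 bp near LY6G5C and 2996 bp near TH. A region was thus broad or not by as little as a few bases.

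Recurrence was limited. Of the 383 regions, 219 (57.2%) were broad in 1 list, 164 (42.8%) in 2 or more, 47 (12.3%) in 5 or more and 5 in all 8. The list of H2A.Z.1 in postconfluent cells from Exp2 alone accounted for 101 of the 219. The 2 experiments of a group shared 36 broad regions for H2A.Z.1 in subconfluent cells (30.8% of those of Exp1 and 64.3% of those of Exp2) and 84 in postconfluent cells (55.3% and 39.1%). For H2A.Z.2 they shared 5 in subconfluent cells (5.26% and 55.6%) and 31 in postconfluent cells (50.8% and 27.9%).

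Where a region was not broad in a list, it was seldom empty. Of the 383 regions, 368 had an interval of some width in every list, and the most that any list lacked was 15, in H2A.Z.2 of subconfluent cells from Exp2. In the lists where they were not broad, 68.1% to 86.0% of the regions held several narrower intervals, separated by a median gap of 174 to 240 bp. The intervals covered a median of 61.5% to 87.2% of the region. A broad call in one list and a row of shorter calls with small gaps in another thus often lay over the same stretch.

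The 5 regions that were broad in all 8 lists lay over HOXB7 and HOXB8, CCNO, IGF2BP1, F12 and NINJ2. Below, values are given in the order H2A.Z.1 Exp1, H2A.Z.1 Exp2, H2A.Z.2 Exp1, H2A.Z.2 Exp2, first for subconfluent cells (before confluence) and then for postconfluent cells (after it), and coordinates are on GRCh38. HOXB7 and HOXB8 are homeobox genes that give position along the body axis, and the region at chr17:48608893-48613924 held an annotated end of both. Its widest interval measured 3646, 4349, 3534 and 4293 bp before confluence and 5032, 4455, 4152 and 4795 bp after it. The states overlapped. By fold enrichment, ranked within its own list, its strongest interval stood at percentiles of 95.4 to 99.8.

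CCNO encodes a cyclin-like protein needed to make the many centrioles of multiciliated cells. The region at chr5:55230743-55235221 held the whole gene. The widest interval was 3870, 3893, 3892 and 3724 bp before confluence and 4479, 3685, 3931 and 4019 bp after it. In each list it was 1 unbroken interval that reached about as far before the start as after it. IGF2BP1, an RNA-binding protein of fetal tissue and tumours, had a region at chr17:48995227-48998972 over 1 of its ends. The widest interval measured 3205, 3175, 3632 and 3053 bp before confluence and 3737, 3646, 3715 and 3610 bp after it. The states overlapped in width.

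F12 encodes coagulation factor XII, and its region at chr5:177402018-177406039 held a gene end. There the widest interval ranged from 3132 to 3950 bp over the 8 lists, at percentiles of 96.0 to 99.8 by fold. The region at chr12:568138-571727 lay inside NINJ2, which encodes an adhesion protein of the cell surface, 5636 bp from the nearest gene end to its midpoint. Its widest interval ranged from 3097 to 3456 bp and stood at percentiles of 91.9 to 99.2. Both regions were thus among the strongest of every list as well as among the widest.

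A further 11 regions were broad in 7 lists. The widest 5 of them by mean were at WNT11, SOX6, P2RY6, a stretch on chromosome 21 that lay 71553 bp from LOC102724560, and ETV2. All 5 lacked a broad interval in the same list, that of H2A.Z.2 in subconfluent cells from Exp2. WNT11 is a secreted Wnt ligand, and its region at chr11:76204264-76210382 inside the gene held the widest interval of the 8 lists. The widest interval there was 5705, 3373, 5804 and 2799 bp before confluence and 5800, 5682, 3362 and 6085 bp after it. The long and the short values occurred in both states and with both isoforms.

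SOX6, a transcription factor of cartilage, muscle and neural development, had a region 132666 bp from the nearest gene end. Its widest interval was 2859 bp in the shortest list and 4822 to 5120 bp in the other 7. ETV2 is an ETS factor of the endothelial and blood lineages. Its region at chr19:35641916-35646490 spanned 2880 bp in the shortest list and 3715 to 4265 bp in the other 7. P2RY6, a receptor for the nucleotide UDP, differed from the regions above in strength. Its widest interval was 4999, 3383, 4931 and 1171 bp before confluence and 4845, 5239, 4836 and 5001 bp after it, while its strongest interval stood only at percentiles of 19.0 to 69.4 by fold. A region could thus be among the widest without being among the strongest.

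**Figure D2:**
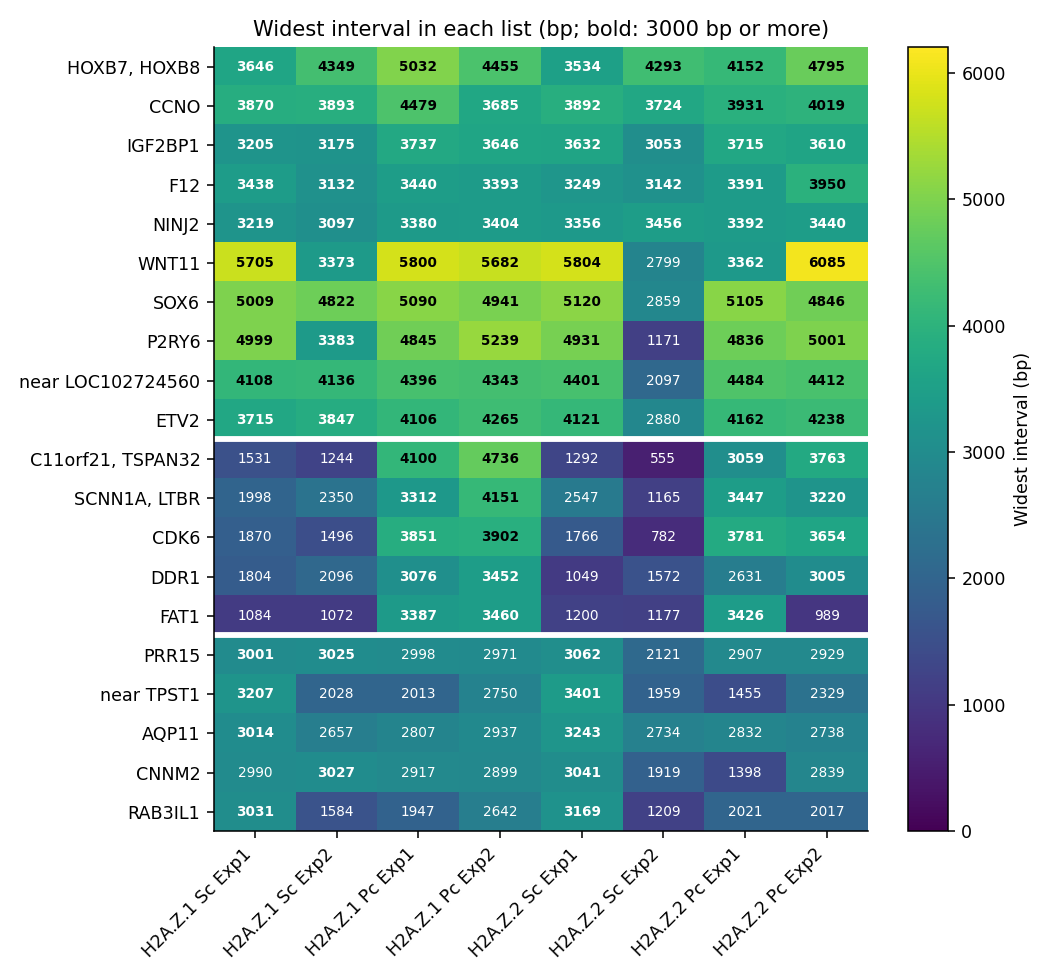
Widest interval (bp, colour and number) in each of the 8 lists (columns; Sc subconfluent, Pc postconfluent) at 20 named regions (rows): from the top, the 10 broad in most lists, the 5 with the strongest tilt to postconfluent and the 5 with the strongest tilt to subconfluent lists. Bold numbers are 3000 bp or more. The tilted regions were chosen for these widths.

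The other regions that held the widest single intervals were at ICAM1, ICAM4 and ICAM5 (5922 bp), near TRIM7 (5609 bp), TGIF1 (5401 bp) and ZNF503 (5399 bp). The ICAM genes encode adhesion molecules bound by leukocyte integrins, and the region at chr19:10286398-10292605 held the whole of ICAM4 and an end of ICAM1 and of ICAM5. Its widest interval was 5922, 4007, 1992 and 2278 bp before confluence and 4117, 4215, 2202 and 3826 bp after it. All 4 values of H2A.Z.1 lay above all 4 of H2A.Z.2, but this region was also among those picked for a tilt to H2A.Z.1 in width. The covered length, the sum of all intervals in the merged region, was 5922, 5698, 5248 and 4174 bp and then 5676, 5781, 4883 and 5910 bp. In covered length the isoforms overlapped. Only the list of H2A.Z.1 in subconfluent cells from Exp1 gave the same value for both measures.

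By the count of lists, more regions were broad in postconfluent than in subconfluent cells. In all, 265 regions were broad in more postconfluent lists and 71 in more subconfluent lists, with 47 equal. Of these, 211 were broad in postconfluent lists only and 53 in subconfluent lists only. These counts follow the number of broad intervals per list, and 101 of the 211 were broad only in H2A.Z.1 of Exp2. No region was broad in all 4 subconfluent lists and no postconfluent list, and 3 were broad in all 4 postconfluent lists and no subconfluent list.

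Those 3 regions lay over C11orf21 and TSPAN32, over SCNN1A and LTBR, and at CDK6. They were picked because all 4 postconfluent and no subconfluent lists were broad, so the states could not overlap in widest interval. Covered length is tied to that width. TSPAN32 encodes a membrane protein of the tetraspanin family. The region at chr11:2301204-2305981 held an end of both TSPAN32 and C11orf21, and the widest interval was 1531, 1244, 1292 and 555 bp before confluence and 4100, 4736, 3059 and 3763 bp after it. The covered length was 2958, 2401, 2271 and 1094 bp and then 4424, 4736, 3465 and 4617 bp. The strongest interval stood at percentiles of 68.6, 71.4, 63.5 and 43.4 before confluence and 81.9, 86.5, 79.3 and 81.6 after it. The states did not overlap in any of these 3 measures.

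SCNN1A encodes a subunit of the epithelial sodium channel and LTBR the lymphotoxin beta receptor. At chr12:6373890-6378040 the widest interval was 1998, 2350, 2547 and 1165 bp before confluence and 3312, 4151, 3447 and 3220 bp after it. The percentile of the strongest interval was 73.7, 85.1, 80.0 and 57.6 before confluence and 69.7, 80.1, 68.9 and 77.0 after it. The states were apart in width and overlapped in percentile.

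CDK6 is a kinase that drives cells from G1 into S phase with D-type cyclins. At chr7:92832625-92836586 the widest interval was 1870, 1496, 1766 and 782 bp before confluence and 3851, 3902, 3781 and 3654 bp after it. The covered length was 3731, 2893, 3386 and 1976 bp and then 3851, 3902, 3781 and 3844 bp. The states did not overlap in either measure, though in covered length only by 3731 against 3781 bp. The highest fold enrichment in the region was 11.16, 9.58, 7.74 and 6.30 before confluence and 8.76, 14.63, 11.01 and 9.98 after it. In fold enrichment the states overlapped. The region held 2 to 4 intervals in subconfluent lists and 1 or 2 in postconfluent lists.

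DDR1, a receptor tyrosine kinase for collagen, and FAT1, a giant cadherin, were broad in 3 postconfluent lists and no subconfluent list. At DDR1 the widest interval was 1804, 2096, 1049 and 1572 bp before confluence and 3076, 3452, 2631 and 3005 bp after it. At FAT1 it was 1084, 1072, 1200 and 1177 bp and then 3387, 3460, 3426 and 989 bp. The states did not overlap at DDR1, which, like FAT1, was picked for these widths. At FAT1 the list of H2A.Z.2 in postconfluent cells from Exp2 fell in with the subconfluent lists. TGIF1, a homeobox corepressor of TGF-beta signalling, was broad with H2A.Z.1 in postconfluent cells only. There the widest interval was 1522, 1038, 1205 and 985 bp and then 5401, 4025, 2554 and 1129 bp.

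**Figure D3:**
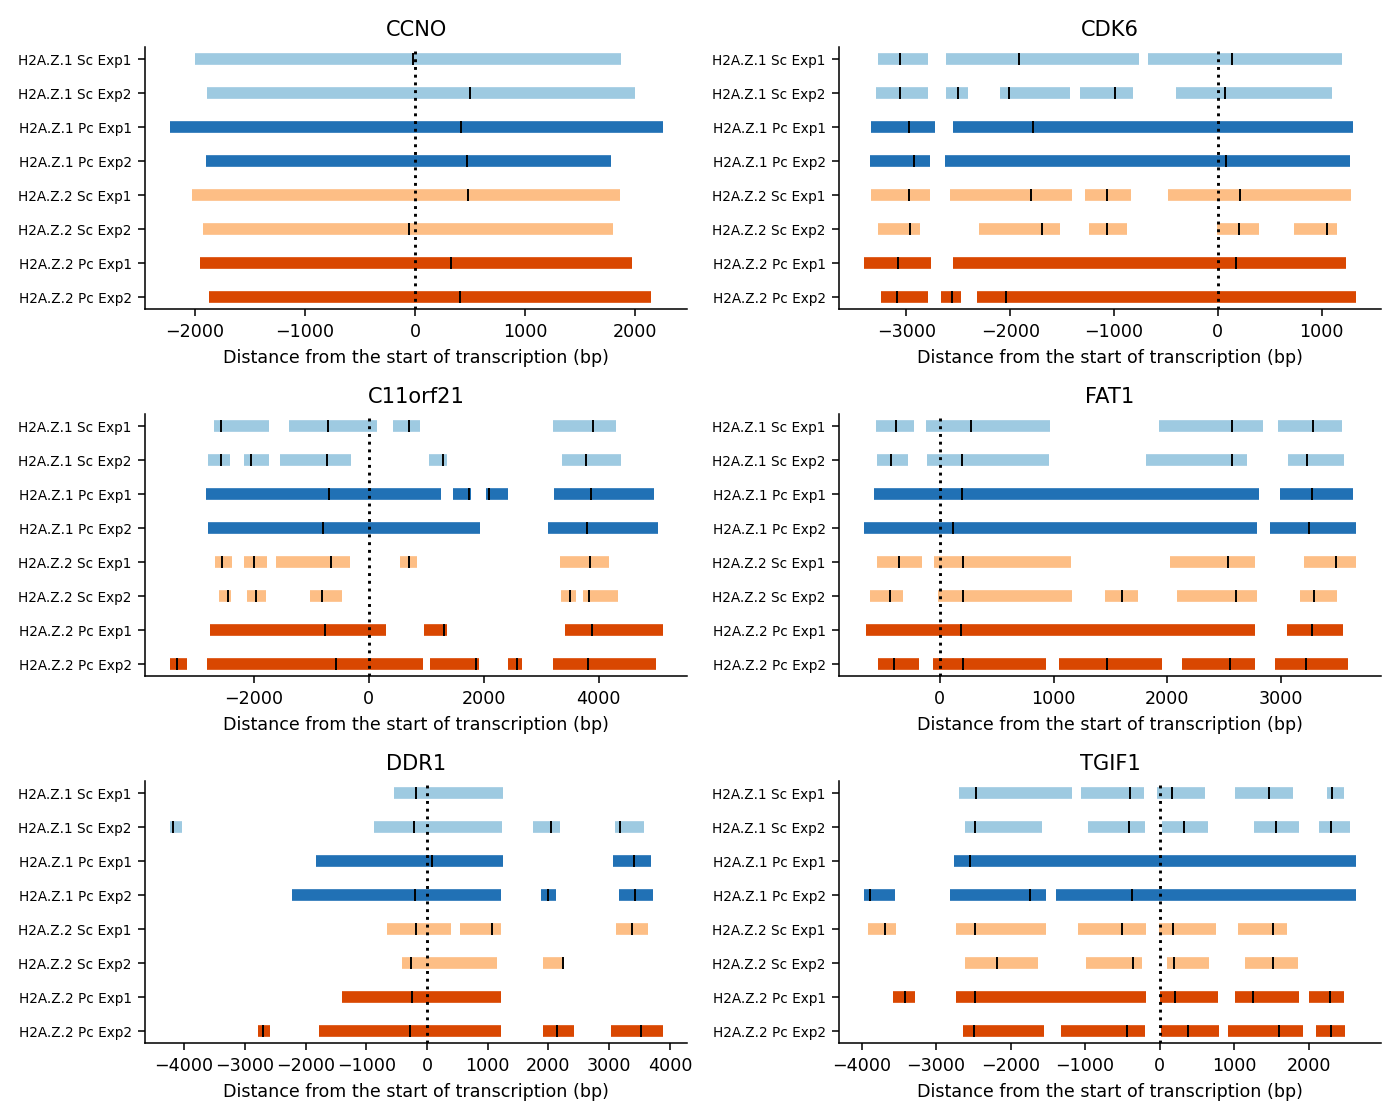
Intervals of the 8 lists (rows; bars, with a tick at each summit) around 6 starts of transcription (dotted line), by distance from the start in bp, negative before it in the direction of transcription. CCNO is 1 interval in every list. At CDK6, FAT1, C11orf21 and TGIF1 the bars of some lists are split where those of others run through.

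Tilts to subconfluent cells were fewer. PRR15, which encodes a proline-rich protein, was the only region broad in 3 subconfluent lists and no postconfluent list. The widest interval was 3001, 3025, 3062 and 2121 bp before confluence and 2998, 2971, 2907 and 2929 bp after it. The 3 broad values lay between 3001 and 3062 bp, just past the minimum, and the states overlapped. The states also overlapped at AQP11, an aquaporin of intracellular membranes, where values ran from 2657 to 3243 bp in subconfluent and from 2738 to 2937 bp in postconfluent cells. CNNM2, a regulator of magnesium transport, had 2990, 3027, 3041 and 1919 bp and then 2917, 2899, 1398 and 2839 bp. Near TPST1, an enzyme that sulfates tyrosines, and at RAB3IL1, an exchange factor for Rab proteins, the 2 broad lists were the Exp1 lists of subconfluent cells. Near TPST1 the widest interval was 3207, 2028, 3401 and 1959 bp and then 2013, 2750, 1455 and 2329 bp. At RAB3IL1 it was 3031, 1584, 3169 and 1209 bp and then 1947, 2642, 2021 and 2017 bp. In both regions the Exp1 values of subconfluent cells lay above all postconfluent values and the Exp2 values did not.

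By isoform, 264 regions were broad in more H2A.Z.1 lists, 63 in more H2A.Z.2 lists and 56 in equally many. None was broad in all 4 lists of one isoform and no list of the other. The strongest tilt to H2A.Z.1 was near CD7, where the widest interval was 2332, 3340, 1520 and 736 bp before confluence and 3294, 4448, 1471 and 2352 bp after it. The lowest H2A.Z.1 value, 2332 bp, lay below the highest H2A.Z.2 value, 2352 bp. GATA6, a transcription factor of the intestinal epithelium, was broad in 3 H2A.Z.1 lists and no H2A.Z.2 list, with 3024, 660, 1477 and 771 bp and then 3311, 3128, 1928 and 2702 bp. IER5L and GFI1, a transcriptional repressor listed here among secretory cell markers, were each broad in all 4 H2A.Z.1 lists and 1 H2A.Z.2 list. At GFI1 the lists of H2A.Z.1 gave 3141 to 3613 bp and those of H2A.Z.2 gave 2124 to 3107 bp, with no overlap. The tilted regions were picked for these widths, so nothing is read from that.

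Tilts to H2A.Z.2 were weaker. Near TRIM7, a ubiquitin ligase, 3 H2A.Z.2 lists and 1 H2A.Z.1 list were broad, but that 1 list held the widest interval of the region. AMOTL1, OIP5 with NUSAP1, and ZNF672 were each broad in 1 H2A.Z.2 list only.

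Covered length was fitted across all 20590 merged regions with an interval in all 8 lists, 368 of them broad, as log2 values centred on each list's median (limma, Benjamini-Hochberg adjustment). None of the 368 passed the threshold of 0.05 between states, where 0.00486% of all regions did, nor between isoforms or for the interaction of both, where 0% did. At an unadjusted p under 0.05 were 51 of the 368 between states (13.9%, 47 higher and 4 lower in postconfluent cells), against 9.63% of all regions. Between isoforms there were 20 (5.43%, against 6.16%), and for the interaction 4 (1.09%, against 3.23%). Covered length is tied to the widths that chose the regions, so nothing is read from these shares. The smallest adjusted p between states was 0.162, at MYO1G, a myosin of blood cells. There the covered length was 1302, 1392, 1411 and 1068 bp before confluence and 2872, 3771, 2674 and 2367 bp after it, a log2 difference of 1.01 (SE 0.149). The states did not overlap, and MYO1G was broad in 1 list only.

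Some regions were apart in all lists by covered length without centring. This measure is tied to the widths that chose the regions, and most regions entered through postconfluent lists only. Nothing is therefore read from the shares that follow. All 4 values of covered length were higher in postconfluent than in subconfluent cells in 44 of the 368 (11.96%, against 4.59% of all regions) and lower in 2 (0.543%, against 0.413%), EMX2, a homeobox factor, and KLHL24, a substrate adaptor of a ubiquitin ligase, both named here after their values were seen. Between isoforms, 11 were lower with H2A.Z.2 (2.99%, against 3.28%) and 0 higher (against 0.107%). Pairs of lists were also compared without centring. The covered length was longer in postconfluent cells at 257 of 368 regions for H2A.Z.1 in Exp1. It was longer at 307 for H2A.Z.1 in Exp2 and at 350 for H2A.Z.2 in Exp2. For H2A.Z.2 in Exp1 it was longer at 137. The median differences were 193.5, 466.5, 900.5 and, in the last pair, -130.5 bp. With each list centred on its median, the difference was above 0 at 183, 180, 192 and, in the last pair, 250 of the 368 regions. Direction depended on scaling. With each list centred on its median, 56.5% of the broad regions (and 42.9% of all regions) were above 0 in postconfluent cells. The share was 69.3% (and 48.6% of all regions) without the shortest list. With any other single list left out it ran from 49.7% to 60.4% (and from 40.6% to 45.4% of all regions). Without centring it was 87.8% (and 73.1%). By isoform, 58.4% of the broad regions (and 58.1% of all regions) were above 0 with H2A.Z.2 when centred. Without centring it was 11.7% (and 20.3%), as the median over all regions moved from 0.05 to -0.14.

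**Figure D4:**
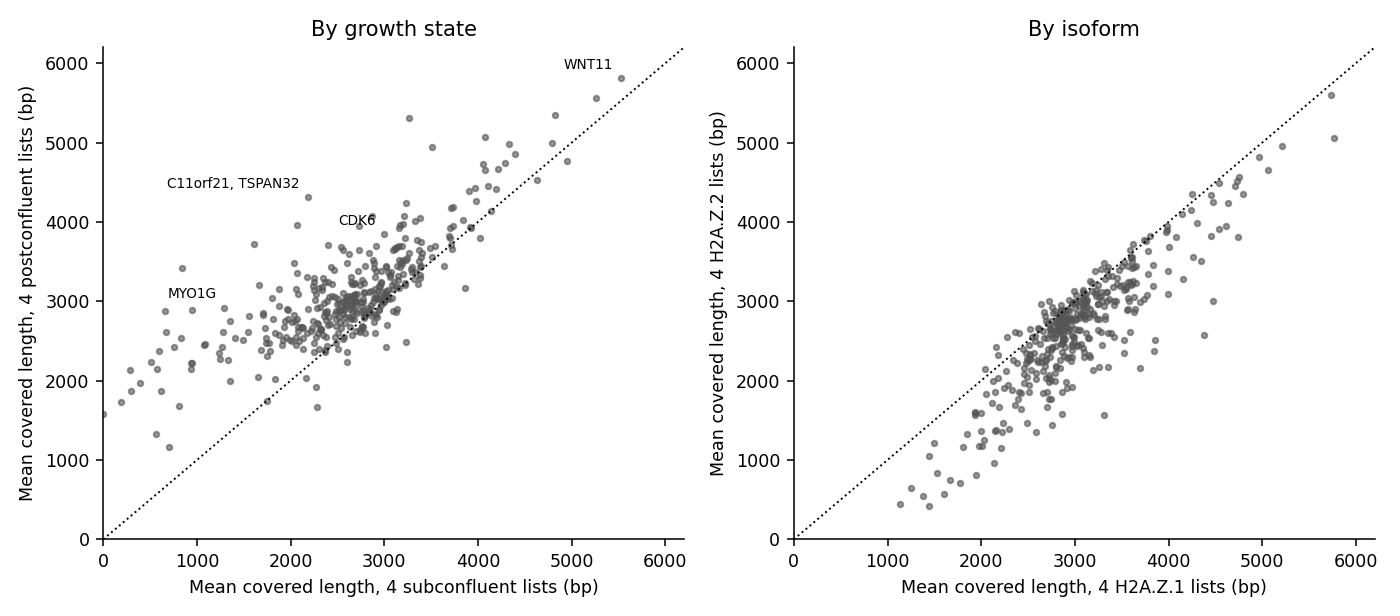
Mean covered length (bp) of each of the 383 broad regions, without centring, in the 4 lists of one side against the 4 of the other; each point is a region and the dotted line marks equality. Most points lie above the line for postconfluent cells and below it for H2A.Z.2, and the sides differ also in list length.

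Fold enrichment, as the authors' lists give it, was not the value the regions were chosen by, but it is not independent of it. Of the regions, 211 entered through postconfluent lists only and 53 through subconfluent lists only, and 197 through H2A.Z.1 and 56 through H2A.Z.2 lists only. The differences below are therefore given without a test. Against all intervals of their list, broad intervals were mostly strong ones. Their median percentile within a list was 87.1 to 93.0, and 38.8% to 60.7% of them were among the top 10% by fold. Percentiles of the other regions with an interval in all 8 lists are not given here. Over all 383 regions, broad or not in that list, the median percentile of the strongest interval was 83.5, 88.9, 84.9 and 75.5 in subconfluent and 86.0, 90.1, 81.3 and 87.0 in postconfluent lists. The mean was 83.2 ± 5.62 in subconfluent and 86.1 ± 3.65 in postconfluent lists (SD, n = 4), a difference of 2.87 points. The difference was -0.559 in Exp1 and 6.31 in Exp2. By isoform the mean was 87.2 ± 2.97 for H2A.Z.1 and 82.2 ± 5.02 for H2A.Z.2 (SD, n = 4), a difference of -4.96 points. It was -1.66 in Exp1 and -8.25 in Exp2. Without the shortest list, H2A.Z.2 of subconfluent cells from Exp2, the differences were 0.367 by state and -2.72 by isoform. With every list reduced to its 30603 strongest intervals they were 0.541 by state and 0.624 by isoform, so the second turned its direction. Values of the 2 sides overlapped in both comparisons.

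**Figure D5:**
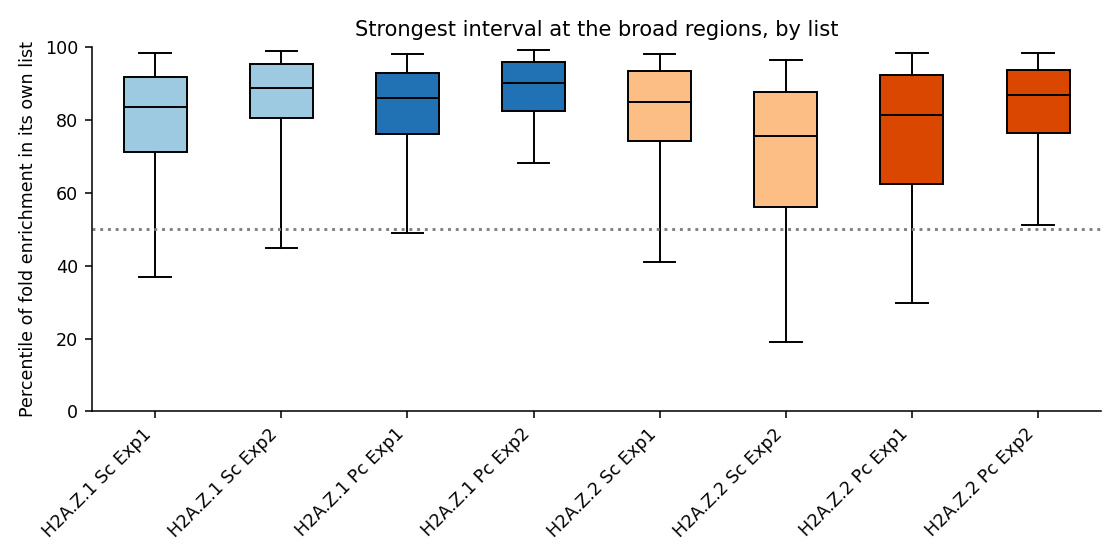
Percentile by fold enrichment, within its own list, of the strongest interval at each broad region (boxes, quartiles with the median; whiskers, 5th to 95th percentile) for the 8 lists (Sc subconfluent, Pc postconfluent). The dotted line at 50 is the middle of a list's intervals, and the strongest of several intervals at a region tends to lie above it. Medians lie between 75.5 and 90.1, lowest in H2A.Z.2 subconfluent Exp2.

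Region by region, the percentile was higher in all 4 postconfluent than in all 4 subconfluent lists at 13 of 368 broad regions (3.53%, against 2.66% of all regions) and lower at 3 (0.815%, against 0.699%). Between isoforms it was lower with H2A.Z.2 at 15 (4.08%, against 5.50%) and higher at 0 (against 0.0729%). Nothing is read from these shares. Among the 13 were IGF2BP1, DLL4 and C11orf21 with TSPAN32. At IGF2BP1 the percentile was 87.3, 87.3, 83.1 and 73.2 before confluence and 91.5, 93.6, 91.5 and 93.2 after it. The 3 lower ones, named after their values were seen, were at OIP5 with NUSAP1, 2 genes of chromosome segregation, at PIK3IP1, an inhibitor of PI3 kinase, and at TXN, which encodes thioredoxin.

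The 383 regions overlapped 337 of 20037 annotated protein-coding genes (1.68%). An annotated end of such a gene lay in 218 regions, 66 lay inside a gene and 99 outside. Over windows of 3000 bp about the midpoint, a gene end lay in 53.5% of the broad regions and in 55.0% of the 20222 other regions with an interval in all 8 lists. More than 10 kb from any gene end were 23.2% and 29.3%. Broad regions were thus placed near genes much like other regions that recurred in every list. The 47 regions broad in 5 lists or more had a gene end in 57.4% of windows, and those broad in 1 list in 48.4%. Small genes could fit whole into a region, and 7 did: SFN, FBXL15, HCRT, ICAM4, JUNB, POLR2I and CCNO. A miRNA hairpin lay in 5 regions: MIR4734, MIR6791, MIR378A, MIR4638 and MIR10398.

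Around the 106 broad regions with 1 listed start, the region reached a median of 1782 bp before the start and 1710 bp after it. Summits lay after the start in 35.8% to 41.5% of these regions, by list. In the 5814 other regions of this kind summits lay after the start in 47.1% to 58.3%. The ranges over the 8 lists did not overlap, but the lists measure the same regions and are not 8 separate checks. The other regions were also narrower, with a median of 764 bp before the start and 781 bp after it. Width was thus not matched. The promoters of starts in broad regions were close in composition to those of other occupied starts. The median number of CG dinucleotides was 26 in the 289 starts in broad regions, 26 in 10475 starts in the other regions with an interval in all 8 lists and 21 over all 22078 protein-coding starts. GGGCGG, on either strand, was in 74.7%, 71.5% and 56.3% of them. TATAAA, the core of the TATA box, was in 6.57%, 4.43% and 9.50%. CCAAT, bound by NF-Y, was in 28.4%, 35.6% and 34.7%. TGACTCA, bound by AP-1, was in 2.77%, 2.56% and 4.02%. These motifs were searched on both strands as exact letters, and GGGCGG holds a CG. A match is a description of the letters and not a site.

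Broad regions were unevenly spread over chromosomes. Chromosome 11 held 47 (12.3%, against 6.45% of the regions with an interval in all 8 lists), chromosome 17 held 45 (11.7%, against 6.55%) and chromosome 1 held 20 (5.22%, against 9.43%). Of the 383, 70 (18.3%) lay within 100 kb of another. They included 6 chains of 3, among them one of P2RY2, P2RY6 and ARHGEF17, one of the ICAM genes with RAVER1, and one that ended at C11orf21 and TSPAN32.

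The genes overlapped included regulators of signalling and transcription. The gene lists used here were drawn up with earlier results of these data known, and their counts are given without a test. Wnt genes numbered 3 of 34 listed (8.82%, against 1.68% of all protein-coding genes): WNT11, LRP5 and SP5. WNT1, which was not on this list, was overlapped too. LRP5, a co-receptor for Wnt ligands, was broad in 7 lists, with 2223 bp in the shortest list and 3001 to 3456 bp in the others. SP5, a transcription factor gene switched on by Wnt signalling, was broad in the Exp2 lists of postconfluent cells only. Of Notch and TGF-beta genes 6 of 36 were overlapped: the Notch ligands DLL4 (4 lists) and JAG1 (2), the growth factors TGFB1 (3), BMP4 (2) and BMP7 (1), and TGIF1 (2). At BMP4 the widest interval was 804, 296, 330 and 0 bp before confluence and 3536, 3581, 1757 and 1669 bp after it, where 0 means that no interval was listed. The states did not overlap there, but the region entered through 2 postconfluent lists and no subconfluent list, so nothing is read from this. At DLL4 it was 2953, 3822, 2751 and 1225 bp and then 3170, 3162, 2682 and 3406 bp, and the states overlapped.

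Of HOX genes 4 of 39 were overlapped, HOXA7 and HOXA10 in 1 list each besides HOXB7 and HOXB8. Of developmental transcription factors there were 7 of 59, led by TBX3, a T-box repressor broad in 6 lists, with MEIS2 in 3. At TBX3 the widest interval was 948 and 1067 bp in the Exp2 lists of subconfluent cells and 3386 to 3660 bp in the other 6. Among intestinal transcription factors, GATA6 is described above.

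Of immediate early genes, which respond within minutes to stimuli, 5 of 37 were overlapped. ATF3, a stress-induced factor, was broad in 6 lists, DUSP6, a phosphatase of ERK, in 3, the AP-1 members FOS and JUNB in 2 each, and EGR1 in 1. At FOS the widest interval was 3256, 2521, 2632 and 1737 bp before confluence and 2388, 3339, 1470 and 2223 bp after it, with full overlap of the states. Of glycolysis and hypoxia genes there were 3 of 25: ADM, which encodes the vasodilator peptide adrenomedullin, in 4 lists, LDHA, lactate dehydrogenase A, in 2 and PFKFB3 in 1. Of listed cell cycle genes there was 1 of 32, MKI67, the proliferation marker Ki-67, in 1 list. CDK6, OIP5 and NUSAP1, overlapped as described above, were not among the 32. Of secretory, enteroendocrine and tuft cell markers there was 1 of 20, GFI1.

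Other lists had no member under a broad region. These were the 77 ribosomal protein genes, 69 replication-dependent histone genes, 36 brush border, digestive enzyme and transporter genes, 27 genes of H2A.Z deposition and removal, 24 tight junction and adhesion genes, 22 cholesterol synthesis genes and 7 CDK inhibitors. The adhesion molecules described above, ICAM1, ICAM4, ICAM5, NINJ2 and FAT1, were not among the 24. The markers of other cell types, 18 of fibroblasts, 18 of blood cells and 16 of neurons and muscle, had no member under a broad region either. Of all protein-coding genes only 1.68% were overlapped, so having no member is near that share for lists of these sizes. No absence is read from it. Occupancy is not expression, so these counts do not check the identity of the cells.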

How the data were processed

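Flag ChIP-seq of Caco-2/15 cells was deposited as 8 peak lists, 1 per sample, from single reads of 85 bp. The other 9 of 17 samples are not analysed here. The submitters' processing notes name BWA, deepTools and hg38. The sources used here name no peak caller, no control for it and no spike-in scaling. In the deposited lists the score is 10 times the −log10 q-value, the authors' fold enrichment is a ratio (fold) to a control not given, and the authors' p-value and q-value are on a −log10 scale. These were used only to rank or filter within a list. A list holds only intervals above a threshold, so depth, counting intervals and floors are unknown.

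Broad intervals (3000 bp or more) were merged where they overlapped. Covered length is the bp of a list's intervals in the merged region, which can reach past the broad region. Its log2 value, centred on each list's median over regions with an interval in all 8 lists, entered limma (version 3.58.1 under R 4.3.3) with a mean for each of the 4 groups, and the code was tested on simulated data. Shares and median percentiles per list are given as means and SDs without a test, since the choice of regions bears on them. Genes, promoters and miRNA hairpins were those of RefSeq (GRCh38.p14). The gene annotation has no strand and the promoter table is not complete, so a gene end may be a start or an end. Of the listed genes, all were found in the annotation by symbol.

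Named regions were the 10 broad in most lists, the 5 with the widest interval, the 5 with the largest tilt in each direction by state and by isoform, list genes, those past limma, and the 3 on either side of the width minimum. Others are said to be named after their values were seen. A few regions that these rules name are not reported here. The regions, gene lists and tests were chosen with earlier results of these data known. Alternatives were other width minimums, lists reduced to 30603 intervals, a minimum −log10 q of 10, other scalings and merge distances, a replicate block and lists left out.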

Additional observations from a re-analysis of the deposited data

Results flagged for a closer look

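At 2 named regions both H2A.Z.1 pairs of lists moved one way between states and both H2A.Z.2 pairs the other way, in centred log2 covered length. Near DDX11 the difference, postconfluent minus subconfluent, was -0.26 in Exp1 and -0.23 in Exp2 for H2A.Z.1, against 0.07 and 0.26 for H2A.Z.2. At ICAM1, ICAM4 and ICAM5 it was -0.15 and -0.21 for H2A.Z.1 and 0.07 and 0.05 for H2A.Z.2. The interaction was 0.41 (SE 0.262) near DDX11 and 0.24 (SE 0.261) at the ICAM genes, each with an adjusted p of 0.9999 (limma, 20590 regions). Neither passed the threshold. Groups of 2 lists allow no check for a list that stands apart within its group.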

How the results depend on the processing

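The number of broad regions was 1017 with a minimum of 2500 bp and 55 with 4000 bp, and 282 to 382 when 1 list was left out, lowest without H2A.Z.1 of postconfluent cells from Exp2. No broad region passed limma for state, isoform or interaction under any alternative run (0 to 0 when 1 list was left out). Leaving out lists gave differences in the percentage broad of 0.0596 to 0.134 by state and -0.121 to -0.0379 by isoform, and differences in percentile of 0.367 to 4.81 by state and -6.51 to -2.72 by isoform. With lists reduced to 30603 intervals the percentile difference by isoform reversed to 0.624, that by state fell to 0.541, and the cause was not tested. At RAB3IL1 the state difference of 0.02 reversed to -0.073 with reduced lists, to -0.0841 with a minimum −log10 q of 10, and ranged from -0.22 to 0.25 with lists left out.

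In centred log2 covered length, correlations of same-numbered deviations ran from -0.0439 to 0.139. Centring takes out a shift shared by a whole list, so these values cannot show whether width differed by experiment. Median interval widths were higher in every Exp1 list than in any Exp2 list. With the replicate block, 0 broad regions passed for state, isoform or interaction. Each group has a list of each experiment, so the block cannot change a difference of means and its sameness shows nothing. This holds for the differences in percentile, 2.87 by state and -4.96 by isoform. It holds also for those in percentage broad, 0.0944 and -0.0758. Their tests are not given because the choice of regions bears on them. Peak lists carry no depth, so a gap between intervals may hold signal below the authors' threshold.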
